A study of Rattus norvegicus with 4 samples.

Results

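Jchain and Gzma, a plasma cell gene and a gene of cytotoxic lymphocytes, were followed with 6 genes of T cells, Cd3d, Cd3e, Cd8a, Cd8b, Lck and Zap70, across 4 arrays of the rat mammary gland. Each of the 8 genes was taken as the features whose array annotation gives its current or an older symbol, which found 1 feature for each, 8 of 20500 features in all. Jchain and Gzma were selected on their measured intensities, because both were higher on the 2 arrays of parous glands, so their parity values are a description and carry no test. The T cell genes were added for comparison and not for a parity pattern, though with earlier results of these data known.

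Total RNA of Lewis rats was measured, with 1 array for each of 4 groups of 5 animals. The parous+MNU rats delivered when 87 days old, suckled their young for 21 days, lost their litters at 108 days, received 50 mg/kg of N-methyl-N-nitrosourea (MNU), a carcinogen that alkylates DNA and induces mammary tumours in rats, into the peritoneum at 136 days, and were examined 3 weeks later at 157 days. The AMV+MNU rats were age-matched virgins with the equal dose at the equal age, also examined at 157 days. The parous rats had the same birth, nursing and litter removal, no MNU, and were examined at 136 days, after 28 days of involution, in which the gland regresses because suckling has ended. The AMV rats were virgins of 136 days without MNU. MNU cannot be told apart from 3 more weeks of age or, in parous rats, from the longer time after litter removal, 49 against 28 days. How the 5 animals of a group were combined on 1 array is not stated in the sources used here.

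Plasma cells are the antibody-secreting end stage of B cells. In pregnancy and lactation, plasma cells that make IgA settle in the mammary gland, the joining chain links their IgA into dimers, and the polymeric immunoglobulin receptor of the epithelium carries these dimers into milk. Cytotoxic T cells and natural killer cells kill target cells with proteases, the granzymes, which perforin lets into the target. T cells recognise antigen through a receptor whose CD3 chains pass the signal inward, helped by CD4 or CD8 and by the kinases Lck and Zap70.

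The values are deposited intensities in arbitrary units on a linear scale, and array medians were 179 units for parous+MNU, 221 for AMV+MNU, 226 for parous and 238 for AMV. The arrays held 795, 666, 421 and 390 blanks in that order, none of them in the 8 genes. Because the parous+MNU array was dimmer as a whole, differences below use quantile-normalized log2 intensities unless deposited units are named. Mammary markers were present on all 4 arrays, with deposited intensities of at least 5050 units for Epcam, an epithelial adhesion protein, and 815 units for Krt14, a keratin of basal cells. Esr1 and Pgr, the oestrogen and progesterone receptor genes, stayed at or below 131 and 157 units. No replicate check of a single difference exists with 1 array per group, which limits the precision. In whole gland RNA, fewer cells of a type and less RNA per cell cannot be told apart.

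Jchain, whose product joins IgA and IgM molecules into polymers, was high on both parous arrays. Its deposited intensity was 2940 units for parous+MNU, 1130 for AMV+MNU, 5290 for parous and 1190 for AMV. Both parous arrays lay above both virgin arrays. On the parous+MNU and parous arrays 159 and 158 features were brighter than Jchain, and on the AMV+MNU and AMV arrays 1628 and 1862 were. The deposited parous value was 4.45 times the AMV value, and the parous+MNU value was 2.6 times the AMV+MNU value. After normalization these became 3.59-fold with MNU and 4.47-fold without, log2 differences of 1.84 and 2.16. These ranked the third of 5686 genes with MNU and the second of 5994 without. Jchain's feature is annotated with the transcript BC097960.

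Gzma, which encodes granzyme A, a serine protease of cytotoxic granules, was also higher on both parous arrays. Its deposited intensity was 878 units for parous+MNU, 586 for AMV+MNU, 1180 for parous and 551 for AMV. The parous+MNU value was 1.5 times the AMV+MNU value, and the parous value was 2.14 times the AMV value. The normalized log2 differences were 1.01 with MNU and 1.15 without, or 2.01-fold and 2.21-fold. The pair with MNU thus lay just above 2-fold, and it was under 2-fold as deposited, at 0.58, and with each array divided by its median, at 0.89. It ranked the eighth there and the twelfth without MNU. In the untreated pair 19 of 5994 genes were at least 2-fold higher in parous glands, 0.317%, and in the pair with MNU 9 of 5686 were, 0.158%. Both pairs together had 6 such genes of 5587, 0.107%. Jchain and Gzma are among these because they were picked for it, and nothing is read from their place in the counts.

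**Figure D1:**
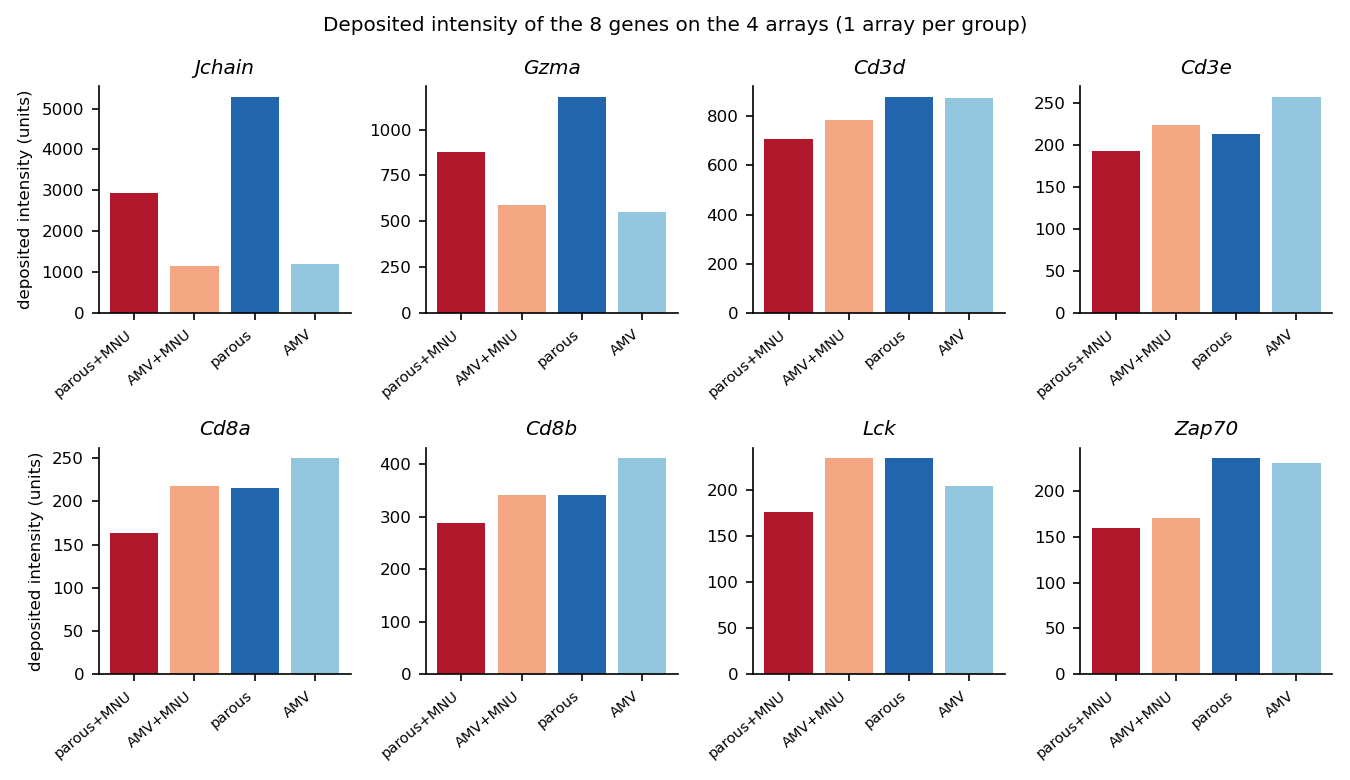
Deposited intensity in arbitrary units (vertical axes, from 0, a separate scale for each gene) of the 8 genes on the 4 arrays. Each bar is 1 array and there are no error bars. Jchain and Gzma stand above both virgin arrays on both parous arrays, at 2940 and 5290 units for Jchain and 878 and 1180 for Gzma, and the T cell genes show no such split.

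The 250 bases before the annotated start of Jchain and of Gzma are given because these are the 2 genes that were high together on both parous arrays. RefSeq promoter sequences of the rat assembly GRCr8 were matched for 7 of the 8 genes, and both are read 5′ to 3′ on the strand of each gene, at chr14:19822726-19822975 on the plus strand for Jchain and at chr2:46485697-46485946 on the minus strand for Gzma. Capitals mark each match to the motifs searched on both strands.
Jchain promoter: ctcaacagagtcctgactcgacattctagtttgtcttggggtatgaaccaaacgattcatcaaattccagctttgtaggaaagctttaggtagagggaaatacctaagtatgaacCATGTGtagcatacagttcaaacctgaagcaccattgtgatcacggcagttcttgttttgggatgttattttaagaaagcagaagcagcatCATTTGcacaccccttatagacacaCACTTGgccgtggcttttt
Gzma promoter: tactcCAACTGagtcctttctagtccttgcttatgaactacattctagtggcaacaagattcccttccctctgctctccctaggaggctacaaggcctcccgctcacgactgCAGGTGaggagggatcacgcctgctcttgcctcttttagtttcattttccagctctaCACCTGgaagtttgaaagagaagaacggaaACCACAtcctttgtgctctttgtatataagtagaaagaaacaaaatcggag
The motifs searched were CANNTG, the E box bound by basic helix-loop-helix factors, GAGGAA of the PU.1 kind, TGTGGT of the RUNX kind, TTCNNNGAA of the STAT kind, TGANTCA of the AP-1 kind and the octamer ATGCAAAT. The E box was matched 3 times in each sequence, with first bases 135, 44 and 19 before the start in Jchain and 245, 138 and 81 in Gzma. Of 33469 annotated promoters of this length 65.5% hold a match to it. TGTGGT was matched once in Gzma, on the opposite strand with its leftmost base 51 before the start, and 14.5% of promoters hold it. No other match overlapped these, and the other motifs had no match in either sequence. They are held by 23.3% of promoters for GAGGAA, 7.67% for TTCNNNGAA, 6.34% for TGANTCA and 1.56% for the octamer.

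The CD3 genes were not split by parity as Jchain and Gzma were. Cd3d, the delta chain of the T cell receptor complex, had 707 units for parous+MNU, 787 for AMV+MNU, 880 for parous and 874 for AMV. The untreated arrays were nearly equal and both MNU arrays were lower in deposited units. After normalization it differed by 0.25 between parous+MNU and AMV+MNU and by 0.07 between parous and AMV on the log2 scale, so that both parous arrays lay above both virgin arrays by a small margin. Cd3e, the epsilon chain, had 193 units for parous+MNU, 224 for AMV+MNU, 213 for parous and 257 for AMV. Its normalized parity differences were 0.11 with MNU and -0.19 without, so they had opposite signs.

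The genes of CD8, the coreceptor of cytotoxic T cells, showed no split of the arrays by parity that resembled that of Jchain. Cd8a, the alpha chain of CD8, had 163 units for parous+MNU, 218 for AMV+MNU, 216 for parous and 250 for AMV, with normalized parity differences of -0.12 in both pairs. Cd8b, the beta chain, had 287 units for parous+MNU, 341 for AMV+MNU, 341 for parous and 411 for AMV. It differed by 0.09 with MNU and by -0.18 without. In deposited units both CD8 genes were lowest on the parous+MNU array and highest on the AMV array.

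The kinase genes had intensities close to the floor and the filter used for dim features. Lck, the kinase that phosphorylates the CD3 chains, had 177 units for parous+MNU, 235 for AMV+MNU, 235 for parous and 205 for AMV. Its normalized parity differences were -0.10 with MNU and 0.27 without. Zap70, which binds the phosphorylated chains, had 160 units for parous+MNU, 171 for AMV+MNU, 236 for parous and 231 for AMV. Its values split by MNU and age rather than by parity, and its parity difference was 0.11 with MNU and 0.10 without. On the AMV+MNU array Zap70 had a normalized intensity of 164.0 units, under the floor of 176.9 units to which dim values were raised, so that differences against that array are bounds. Cd3e, Cd8a, Lck and Zap70 lay between the 35.9th and 53.6th percentile of all features on every array, where a feature must exceed 214.9 normalized units on at least 1 array to be kept. Cd8a exceeded this only on the AMV array, Zap70 only on the parous array, Lck on 2 arrays and Cd3e on 3. For Cd8a and Zap70 the direction of differences against those arrays was thus a condition of their being kept. The features of Cd3e, Cd8a, Lck and Zap70 were 1.83 to 2.89 times the 1st percentile of intensity of their arrays.

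None of the 6 T cell genes was 2-fold different in either parity pair, where 0.422% of all genes were with MNU and 0.45% without. With MNU 4 lay above 0 and 2 below, with a median of 0.10, and without MNU 3 lay above and 3 below, with a median of -0.03. The medians of all genes were -0.01 in both pairs, with 47.1% and 47.0% of genes above 0. The spread of all genes (a robust SD, from the median absolute deviation) was 0.20 with MNU and 0.15 without on the log2 scale, and 1 of the 6 genes exceeded it with MNU and 3 without. In an additive limma model of parity and MNU over the 4 arrays, 0 of the 6 passed for parity at an adjusted p of 0.05, and 0 had an unadjusted p under 0.05. Of all 5587 genes 69 passed, 1.24%, and 553 had an unadjusted p under 0.05, 9.9%. Adjusted p-values in limma ran from 0.741 for Cd3d to 0.954 for Cd3e. The mean differences were between -0.12 ± 0.11 for Cd8a and 0.16 ± 0.11 for Cd3d (SE, 2 arrays per parity state). The 95% intervals allow parous glands 0.943 to 1.32 times the virgin level for Cd3d, 0.815 to 1.16 for Cd3e, 0.78 to 1.08 for Cd8a, 0.813 to 1.15 for Cd8b, 0.883 to 1.27 for Lck and 0.912 to 1.27 for Zap70. These ratios are of whole intensities, and for dim features they understate a ratio of RNA levels. The SEs, intervals and p-values of limma rest on how far the parity pairs disagree, moderated over all genes, and not on replicates.

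**Figure D2:**
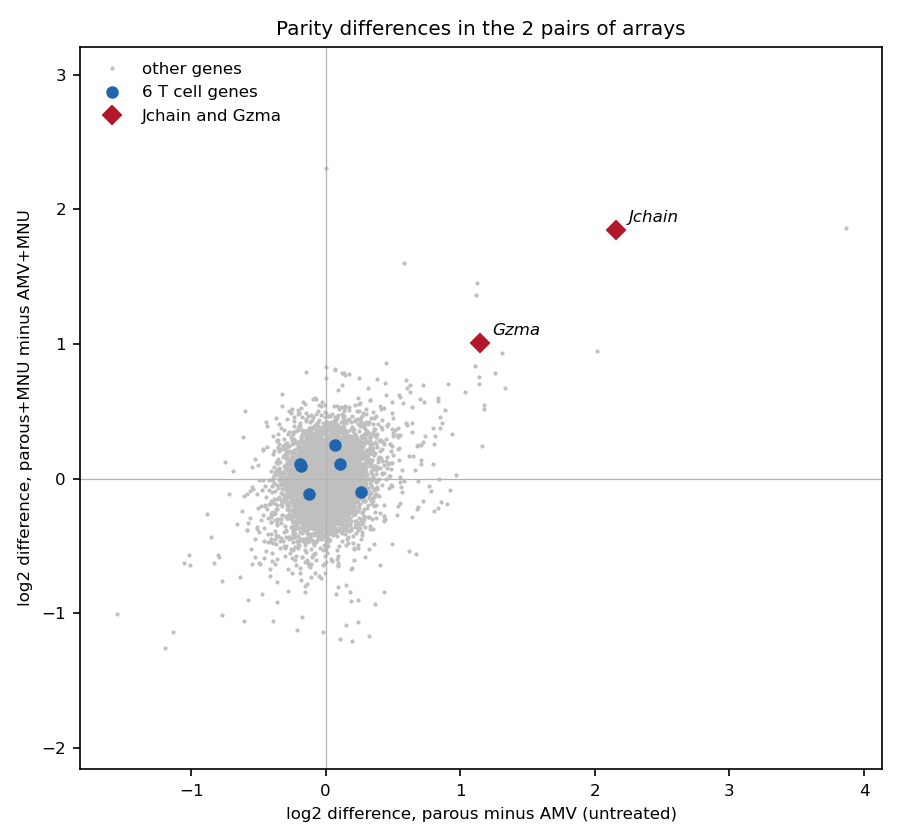
Log2 difference of normalized intensity, parous minus AMV on the horizontal axis and parous+MNU minus AMV+MNU on the vertical axis, for every gene with both values (grey). Jchain at 2.16 and 1.84 and Gzma at 1.15 and 1.01 lie at the upper right, while the 6 T cell genes lie within 0.27 of 0 on both axes.

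The few other kept genes of antibody-secreting cells and B cells had parity differences of mixed sign. Of a list of 35 such genes 10 were matched to a feature and 7 were bright enough to be kept, and none of the immunoglobulin chain genes listed was among those matched. Without Jchain the median parity difference was -0.01 over 5 genes with MNU and -0.01 over 6 without. For parity 0 of the 5 with complete values passed limma, where 1.24% of all genes did. Among so few genes a count of 0 cannot be told apart from that share. Derl3, which helps to dispose of misfolded proteins in secretory cells, had 248 units for parous+MNU, 251 for AMV+MNU, 285 for parous and 240 for AMV, with differences of 0.31 with MNU and 0.32 without (limma adjusted p = 0.271). Sdc1, the syndecan of plasma cells and of epithelium, differed by -0.58 with MNU and -0.17 without (adjusted p = 0.239), and Fcer2, the low-affinity IgE receptor of B cells, by -0.24 and 0.00 (adjusted p = 0.822). Tnfrsf17, the plasma cell receptor for survival factors, was too dim to be kept, with 152 units for parous+MNU, 181 for AMV+MNU, 209 for parous and 193 for AMV. The B cell markers Ms4a1 and Cd79b stayed at or below 138 and 133 units on all 4 arrays.

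Among genes of IgA transport and of homing to mucosal tissue, Itga4 rose. It encodes the alpha-4 integrin, which lymphocytes use to leave the blood, and had 554 units for parous+MNU, 495 for AMV+MNU, 791 for parous and 362 for AMV. The parous array was the highest and the AMV array the lowest. The parity difference was 0.55 with MNU and 1.18 without, a mean of 0.86 ± 0.14 (SE, n = 2 arrays for each parity state; adjusted p in limma = 0.00901). Itga4 was the 1 gene past the threshold among 3 of the 16 listed with complete values, where 1.24% of all genes passed. Ccl28, a chemokine that draws IgA plasma cells to the lactating gland in mice, had differences of 0.01 with MNU and -0.06 without (adjusted p = 0.962). Tnfsf13b, the B cell survival factor BAFF, had 0.30 and 0.01 (adjusted p = 0.764). As deposited, without scaling, Itga4 had an adjusted p of 0.121, and without the filter on dim features 0.803.

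Another granzyme gene, Gzmc, rose with parity. It encodes granzyme C and had 391 units for parous+MNU, 343 for AMV+MNU, 470 for parous and 331 for AMV. Both parous arrays were above both virgin arrays, and the differences were 0.56 with MNU and 0.57 without, a mean of 0.57 ± 0.11 (SE, n = 2 arrays for each parity state; adjusted p in limma = 0.0238). Signal shared between features of related granzyme genes was not tested, since probe sequences were not used here. Gzmc had an adjusted p of 0.484 as deposited and of 0.372 without the filter. Klrd1, the CD94 chain of natural killer receptors, had 221 units for parous+MNU, 218 for AMV+MNU, 290 for parous and 193 for AMV, and differences of 0.35 and 0.64. Ccl5, a chemokine of activated T cells and natural killer cells, had 0.29 and 0.41. Both genes passed the filter of 214.9 normalized units only through the parous arrays, so a difference in this direction was a condition of their being kept. Klrd1 had normalized intensities of 267.8 units for parous+MNU, 210.4 for AMV+MNU, 276.1 for parous and 176.6 for AMV, the last of them under the floor, so that its 0.64 is a bound.

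The remaining genes of cytotoxic granules and natural killer cells were level or mixed. Of 40 listed genes 28 were matched to a feature and 14 were kept. Of the 13 other than Gzma, 1 rose for parity, Gzmc, and 0 fell, where 0.752% of all genes rose and 0.483% fell. Without Gzma 8 of 13 lay above 0 in each parity pair, with medians of 0.20 with MNU and 0.06 without. Klrd1 and Ccl5 are in these counts. Of all genes 47.1% lay above 0 with MNU and 47.0% without. Gzmm, another granzyme gene, had 307 units for parous+MNU, 312 for AMV+MNU, 341 for parous and 344 for AMV. Its normalized differences were 0.32 with MNU and 0.07 without (limma adjusted p = 0.651). Klrk1, the activating receptor NKG2D at 810, 1030, 937 and 1030 units in the same order, differed by 0.06 and -0.08 (adjusted p = 0.99). Both genes were chosen after their values were seen. Prf1, the perforin gene, also chosen after its values were seen, was too dim to be kept, with 172 units for parous+MNU, 185 for AMV+MNU, 190 for parous and 186 for AMV.

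In the wider T cell list 13 of 42 genes were kept, the 6 members among them. Of these 0 passed limma for parity in either direction, where 1.24% of all genes did. The other 7 had medians of 0.06 with MNU and 0.20 without. The largest mean difference was that of Ptprc, the CD45 phosphatase of all white blood cells, with 562 units for parous+MNU, 512 for AMV+MNU, 743 for parous and 633 for AMV (differences of 0.52 and 0.30, adjusted p = 0.138). Cd7, a surface protein of T cells and natural killer cells, had 0.23 and 0.55 (adjusted p = 0.204), and Cd96, a receptor of the same cells, 0.10 and 0.29 (adjusted p = 0.64).

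**Figure D3:**
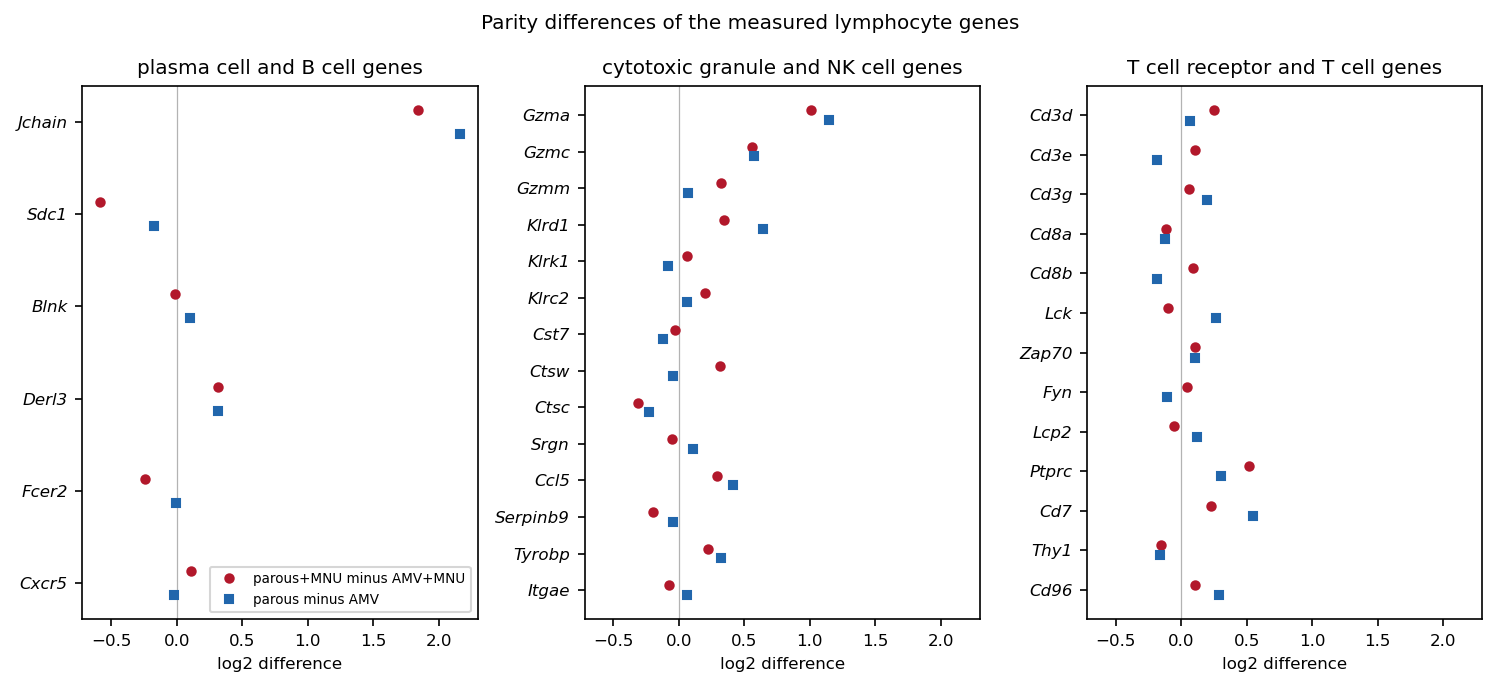
Log2 parity differences (horizontal axes) of each kept gene with values on all 4 arrays from the lists of plasma cell and B cell, cytotoxic granule and natural killer cell, and T cell genes. Circles are parous+MNU minus AMV+MNU and squares parous minus AMV. Jchain, Gzma and Gzmc lie to the right of 0 in both pairs. With them, 2 of 6 plasma cell and B cell, 7 of 14 cytotoxic and 6 of 13 T cell genes lie there. Of all genes 25.0% do. Most T cell genes lie within 0.3 of 0.

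Marker genes of other cell types were set beside these values. Of all genes 0.752% rose for parity in limma and 0.483% fell, and 47.1% lay above 0 with MNU and 47.0% without. Of 10 myeloid genes with complete values 2 rose with parity and 0 fell, Mmp12 and Gpnmb, genes of tissue macrophages (limma adjusted p = 0.00397 and 3.45e-04), while Cd14 had a mean of 0.47 and S100a9 of 0.46 (adjusted p = 0.12 and 0.206). The median myeloid difference was 0.01 with MNU, with 5 of 10 genes above 0, and 0.12 without, with 7 of 11 above 0. The summed normalized intensity of 15 myeloid genes was 16560 units for parous+MNU, 13990 for AMV+MNU, 18750 for parous and 15360 for AMV, and without Gpnmb it was 12090, 11760, 13020 and 12820 units. Of 12 epithelial and milk genes 4 rose and 1 fell. Csn1s2a, Wap, Muc1 and Xdh rose (adjusted p = 3.99e-04, 0.00167, 0.0202 and 0.0202), and the last 2 had an adjusted p of 0.484 as deposited. Krt7, a keratin of luminal epithelium chosen after its values were seen, fell, with 214 units for parous+MNU, 416 for AMV+MNU, 285 for parous and 426 for AMV and differences of -0.63 with MNU and -0.49 without (adjusted p = 0.0285). The median epithelial difference was 0.33 with MNU, with 9 of 12 genes above 0, and 0.23 without, with 8 of 12 above 0. The sum of 14 such genes was 30230, 19240, 37670 and 20060 units in the same order of arrays, and without Csn1s2a and Wap it was 18050, 14830, 19630 and 17630 units. The plasma cell and B cell list without Jchain summed to 4763 units for parous+MNU, 6036 for AMV+MNU, 6317 for parous and 6703 for AMV over 8 genes, of which 3 were at or below the filter on all 4 arrays. Most of each sum was Sdc1, also a gene of epithelium, with 2460, 3683, 3889 and 4385 normalized units in that order. The lower sums of parous glands thus followed Sdc1 and are not read as fewer plasma cells or B cells. The cytotoxic and natural killer cell list without Gzma summed to 10700, 10210, 10870 and 10650 units in that order over 27 genes. Of the 27, 14 were at or below the filter on all 4 arrays. The list of IgA transport and homing summed to 2976, 2526, 2875 and 2442 units over 9 genes, 6 of them at or below it. Over 22 T cell genes without the members the sum was 5463 units for parous+MNU, 5103 for AMV+MNU, 5417 for parous and 5030 for AMV. Of the 22, 15 were at or below the filter on all 4 arrays. Lymph node genes summed to 1270, 1215, 1252 and 1339 units over 6 genes in that order, of which 5 were at or below the filter on all 4 arrays, and Lyve1, a lymphatic vessel gene, had a mean of -0.07 (adjusted p = 0.915). All sums leave out genes with a blank on any array. Among lymph node genes, Glycam1 had 1390 deposited units for AMV+MNU and 1280 for AMV and was blank on both parous arrays. Cxcl13 had 307 units for parous+MNU, 193 for AMV+MNU and 227 for AMV and was blank for parous. The sum of the 6 genes thus does not show whether lymph node content was level. Mast cell genes summed to 6168, 6952, 6029 and 7322 units over 8 genes, with means of -0.32 for Cma1, -0.30 for Cpa3, -0.16 for Fcer1a and 0.09 for Gata2 (adjusted p = 0.267, 0.319, 0.73 and 0.864). Adipocyte genes summed to 5197, 6406, 4353 and 5279 units over 5 genes, where Slc2a4 fell by 0.56 (adjusted p = 0.0493, past the threshold in 4 of 11 alternatives) and Cidec, Lipe and Lep had means of -0.49, -0.11 and -0.04 (adjusted p = 0.0556, 0.832 and 0.948). Fcer1a and Lipe exceeded the filter only on the AMV+MNU array, so a lower parous+MNU value was a condition of their being kept. The part of these cell types in the Jchain and Gzma values was not tested.

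After MNU and 3 more weeks of age, the log2 differences of the 8 genes lay between -0.29 and 0.28. Jchain differed by -0.29 between parous+MNU and parous and by 0.03 between AMV+MNU and AMV. The first of these followed deposited intensities of 2940 against 5290 units, on arrays whose medians were 179 and 226 units. It depended on the scaling, at -0.85 as deposited, -0.51 with each array divided by its median and -0.02 with quantile normalization over all values. Gzma differed by 0.07 in parous and by 0.21 in virgin glands. No member reached 2-fold in either pair, where 5 of 5792 genes did in parous glands, 0.0863%, and 23 of 5821 in virgin glands, 0.395%. In limma, 0 of the 8 genes passed for MNU, where 24 of 5587 genes did, 0.43%. Of the 8, 1 had an unadjusted p under 0.05, Zap70, as did 12.8% of all genes. Zap70 was kept only through the untreated parous array, so a lower parous+MNU value was a condition of its being kept. The mean difference for MNU was -0.13 ± 0.12 for Jchain (SE, n = 2 arrays with and without MNU; adjusted p in limma = 0.692) and 0.14 ± 0.11 for Gzma (adjusted p = 0.651). The 95% intervals allow MNU glands 0.764 to 1.09 times the untreated level for Jchain and 0.931 to 1.3 times for Gzma. The MNU pairs use the same 4 arrays as the parity pairs.

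Among the T cell genes Zap70 had the largest mean difference after MNU, with -0.24 in parous and in virgin glands and a mean of -0.24 ± 0.11 (SE, n = 2 arrays with and without MNU; adjusted p in limma = 0.38). The value in virgin glands is a bound because of the floor. The sign of the value in parous glands was a condition of Zap70 being kept, since only the untreated parous array exceeded the filter. Lck differed by -0.09 in parous and 0.28 in virgin glands, Cd3e by 0.19 and -0.11, Cd8b by 0.12 and -0.16, and Cd3d by 0.14 and -0.04, each with opposite signs. Cd8a differed by -0.09 and -0.10, and the sign of the second was a condition of its being kept, through the AMV array only. The medians of the 6 were 0.02 in parous and -0.10 in virgin glands, beside -0.002 and 0.005 for all genes.

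**Figure D4:**
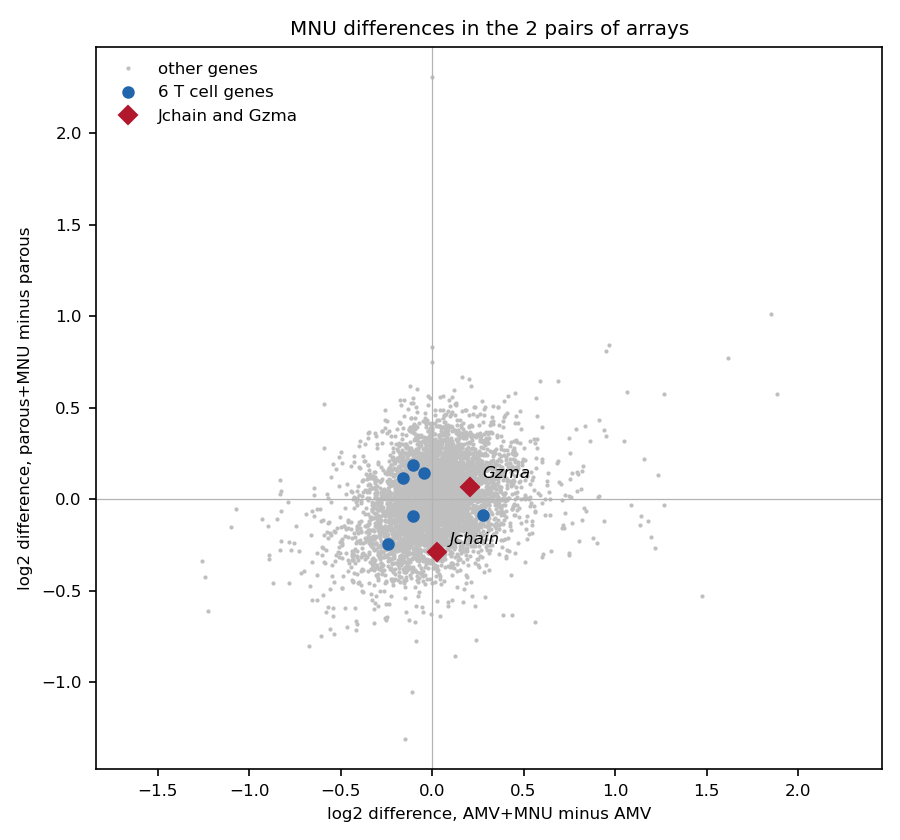
Log2 difference of normalized intensity, AMV+MNU minus AMV on the horizontal axis and parous+MNU minus parous on the vertical axis, for every gene with both values (grey). All 8 genes lie inside the cloud of other genes, with Jchain at 0.03 and -0.29 and Gzma at 0.21 and 0.07.

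The genes whose pattern over the 4 arrays was most like that of Jchain or Gzma were found from the root mean square distance between log2 profiles, each taken minus its own mean. For Jchain these were Wap at a distance of 0.32, Bcar3 at 0.39, Hepacam2 at 0.41, Rnf5 at 0.44 and Gpnmb at 0.46, where the median gene stood at 1.02. Wap, the whey acidic protein gene of milk, had 3340 units for parous+MNU, 2350 for AMV+MNU, 7910 for parous and 1870 for AMV. For Gzma they were closer, with Car2, a carbonic anhydrase gene, at 0.10, Porcn, an acyltransferase of Wnt proteins, at 0.11, Lancl2 at 0.13, Mt2A, a metallothionein gene, at 0.13 and Ltc4s, which encodes leukotriene C4 synthase, at 0.14, where the median gene stood at 0.56. Car2 had 779 units for parous+MNU, 612 for AMV+MNU, 1180 for parous and 553 for AMV, and 4 of the 5 genes, all but Ltc4s, differed by more than 2-fold only in the untreated pair. With 4 arrays many genes can have similar profiles, and none of the 5 genes nearest Gzma or Jchain is a gene of the lymphocyte lists.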

How the data were processed

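Total RNA of 4 rat mammary gland groups was measured on 1 array each, grouped by sample title. The authors deposited positive intensity values with 3 significant digits and blanks; platform, image processing and normalization: not given in the sources used here. Of 20500 features 12750 carried 1 gene symbol, 12720 of them updated by gene identifier to GRCr8 names, 5 carried several and 7745 none.

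The highest array median was 1.33 times the lowest, so quantile normalization was applied, its curve estimated on features with values on all arrays. Values were floored at the pooled 40th percentile (176.9 units) and log2-transformed. Features above the pooled 50th percentile (214.9 units) on at least 1 array were kept, 11113 in all. The brightest kept feature stood for each of 6187 genes, 5587 with complete values. Quantities are log2 differences; limma 3.58.1 (R 4.3.3, lmFit and eBayes, no trend, Benjamini-Hochberg at 0.05) fitted parity + MNU with 1 residual and 11.2 prior degrees of freedom. Its p-values rest on how far the parity pairs disagree, moderated over all genes, and this disagreement may be technical. The fit was also run on simulated data, with independent noise of equal spread in every feature and parity changes in bright features only. That run cannot show how the p-values behave for changes in dim genes or where noise differs between genes.

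The 8 genes, the lists and the tests were chosen with earlier results of these data known. Named by rule were the members, the 4 genes per list with the largest mean parity difference, genes of the 3 lymphocyte lists past the threshold, and the 5 nearest profiles. Named outside this rule were Gzmm, Klrk1, Prf1, Krt7, Tnfrsf17, Ms4a1, Cd79b, Epcam, Krt14, Esr1, Pgr, Glycam1 and Cxcl13. Alternatives covered scaling, floor, filter, several features per gene, background, fold threshold and limma settings.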

Additional observations from a re-analysis of the deposited data

Results flagged for a closer look

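For 5 of the 8 genes the parity difference or the MNU difference pointed one way in one pair of arrays and the opposite way in the other pair. Of all 5587 genes with both parity values, only 25.0% lay above 0 in both pairs and 30.4% below 0 in both. Sign changes were thus common among all genes, and nothing is read from the count of 5. The share of all genes with a sign change for parity or MNU was not counted. The change in the log2 parity difference, with MNU minus without, was -0.32 for Jchain, 0.18 for Cd3d, 0.30 for Cd3e, 0.28 for Cd8b and -0.36 for Lck. For Jchain and Cd3d the parity difference itself was above 0 in both pairs and the MNU difference changed sign. With 1 array per group these differences between pairs were not tested, and the robust SD of all genes was 0.20 in the parity pair with MNU and 0.15 in the pair without.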

How the results depend on the processing

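Jchain stayed at least 2-fold higher in both parity pairs under all 9 alternatives, from 1.38 to 1.97 with MNU and from 2.13 to 2.26 without. Gzma was at least 2-fold higher in 9 of 9 without MNU and in 7 of 9 with MNU, where its lowest value, 0.58, was that as deposited, with the median of all genes at -0.36; against that median its lowest was 0.95. No T cell gene passed limma for parity, and none of the 8 passed for MNU, under any of the 10 or 11 alternatives each gene allowed; with the strict filter Cd3e, Cd8a, Lck and Zap70 were not kept. As deposited the mean parity difference fell below 0 for Cd3d (-0.072), Lck (-0.11), Cd96 (-0.008), Gzmm (-0.018), Gata2 (-0.13) and Tnfsf13b (-0.085), and that for MNU for Gzma (-0.17), Cd3d (-0.23), Cd3e (-0.17) and Lck (-0.11). That for MNU also changed sign for Cd3d with each array divided by its median (-0.012), and for Jchain (0.06) and Cd8b (0.005) with quantile normalization over all values. Of all genes, the count past limma's threshold for parity was 69, against 112 with each array divided by its median, 139 with quantile normalization over all values, 148 with the strict filter, 45 when features of a gene were averaged and 0 without a filter, where 736 genes had an unadjusted p under 0.05. The count for MNU was 24, against 70 as deposited, 106 with each array divided by its median, 188 with quantile normalization over all values, 119 with the strict filter, 12 with the 1st percentile subtracted, 6 with robust limma, 5 without a floor, 5 with each feature on its own, 3 when features of a gene were averaged and 0 without a filter, where 832 genes had an unadjusted p under 0.05. Without a filter all list genes named as past the threshold lost their call, and with robust limma Csn1s2a and Wap lost theirs (adjusted p = 0.692 and 0.265). Muc1 and Xdh lost theirs as deposited (0.484 for both), Xdh also with the 1st percentile subtracted (0.0773), and Krt7 when features of a gene were averaged (0.0583). The counts at least 2-fold different became 130 for parity with MNU, 99 for parity without, 57 for MNU in parous and 133 for MNU in virgin glands at 1.5-fold, and 45, 43, 13 and 57 with the 1st percentile subtracted. Parity with MNU gave 67 as deposited, 62 of them lower, and 15 with the strict filter, and MNU in parous glands gave 44 as deposited, 43 of them lower, 8 without a floor and 2 with the strict filter. The cause of these shifts was not tested. No paired analysis was possible because each group has 1 array and the labels number no replicates, and leaving out an array leaves the model no residual degrees of freedom. Signal close to background limits what can be said of Cd3e, Cd8a, Lck and Zap70.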
